A study of Mus musculus with 21 samples.

Results

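Data are described for 10 genes whose mRNAs encode selenoproteins, the proteins that carry the amino acid selenocysteine. They were chosen by name, as Sepw1, Gpx1, Gpx3, Gpx4, Sepp1, Selk, Selt, Selm, Txnrd1 and Txnrd2, out of 23827 rows in each expression table. The rule used no measured value, but the genes were named with earlier results of these data known. Of the 10 symbols, 9 stood in the tables as such. Selt was listed under 2810407C02Rik, a row whose accession RefSeq gives to Selenot with Selt as a synonym. All 10 had reads in every library, so no member was lost to a filter on low values.

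The study sequenced RNA of embryonic day 14.5 mouse forebrain and kidney in 21 libraries of 7 groups with 3 libraries each. All embryos carried a single Gt(ROSA)26Sor-mCherry-Rpl10a allele, made from a single targeted embryonic stem cell clone, which after Cre recombination puts a red fluorescent tag on the large ribosomal subunit so that ribosome-bound RNA can be pulled down with beads (translating ribosome affinity purification). Heterozygous Sox2Cre, which recombines in all derivatives of the epiblast, gave the brain and kidney transcriptomes (total RNA) and translatomes (ribosome-bound RNA). Heterozygous Cdh5CreERT2, a driver that needs tamoxifen (given to the dams by gavage) and is active in endothelial cells, gave the brain and kidney endothelial cell (EC) translatomes, and heterozygous Emx1Cre, active in the dorsal telencephalon, gave the translatome of the Emx1-lineage. The brain samples held the forebrain and part of the diencephalon, organs of embryos could be pooled in a sample, and same-numbered translatome and transcriptome libraries of an organ came from the same tissue.

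Total counts ran from 21760652 to 79231692 reads per library, lowest in the kidney translatome (21760652 to 24605124). The labelled cell types were checked against their markers. The summed RPKM (reads scaled by transcript length and by the mapped reads of the library) of 9 endothelial markers was 1618 to 1676 in the brain EC translatome and 83.0 to 94.6 in the brain translatome, and 1532 to 1758 against 259.7 to 277.0 in kidney. It was 6.27 to 6.73 in the Emx1-lineage. The brain EC translatome was not free of other RNA, since 7 neuronal markers summed to 434 to 566 RPKM there, against 2859 to 2902 in the brain translatome. Nor was the kidney EC translatome. There 9 nephron and ureteric markers summed to 71.6 to 96.7 RPKM, against 448 to 493 in the kidney translatome. The 4 kidney stroma markers summed to 166 to 197 RPKM in kidney EC, against 400 to 438. The 3 cell-lineage groups were each sequenced in a run of their own, so the run and the Cre driver cannot be told apart.

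Selenocysteine is coded by UGA, which elsewhere ends translation. A stem-loop in the 3' UTR of the mRNA, the binding protein Secisbp2 and the elongation factor Eefsec let the ribosome insert selenocysteine instead. A ribosome on such an mRNA therefore meets an in-frame stop codon, and a stop codon lying more than about 55 bases before the last exon junction is a usual trigger of nonsense-mediated decay. Selenoproteins are best known as enzymes that reduce peroxides and disulphides, and the brain is known to keep its selenium when other organs lose it, by taking up the secreted selenoprotein P.

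The selenocysteine codons were read from GENCODE vM21 on GRCm38, the build of the deposited files. All 10 genes had at least 1, and 9 of the 10 had exactly 1. Sepp1, which codes for selenoprotein P, had 10. The windows below show the codon of each gene, and of Sepp1 the first, in capitals as TGA with up to 12 coding bases on either side, cut where the coding sequence ended. They are shown because the surroundings and the place of this codon are what the encoded proteins share and differ in.
Gpx1: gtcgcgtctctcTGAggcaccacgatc
Gpx3: gtagccagctacTGAggtctgacagac
Gpx4: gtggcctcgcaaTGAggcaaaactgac
Sepw1: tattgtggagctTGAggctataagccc
Selt: atttgtgtatccTGAgggtaccggcgg
Selm: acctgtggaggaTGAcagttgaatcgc
Selk: atggctggtggaTGAggaagg
Sepp1: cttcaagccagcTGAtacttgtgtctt
Txnrd1: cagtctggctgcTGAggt
Txnrd2: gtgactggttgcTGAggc
Among the glutathione peroxidases, the Gpx1 and Gpx4 windows had the same base at 17 of 27 positions, those of Gpx3 and Gpx4 at 16 and those of Gpx1 and Gpx3 at 13. The TGA itself counts among the shared bases of every pair. Sepw1 and Selt had 16 in common and Sepw1 and Selm 15. In both thioredoxin reductases the codon was the last but 1 of the coding sequence.

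The place of the codon differed between the genes. It was number 13 of 88 in Sepw1 (chr7:15920464-15920466, minus strand, exon 2 of 6), 48 in Selm with 97 codons after it, 49 of 195 in Selt, 47 of 201 in Gpx1 (chr9:108339451-108339453, plus strand, exon 1 of 2), 73 of 226 in Gpx3 and 73 of 197 in Gpx4. In Sepp1 the first was number 59 of 380 (chr15:3274848-3274850, plus strand, exon 2 of 5), and the other 9 lay in the last exon between codons 259 and 377. The codon was 92 of 94 in Selk, 498 of 499 in Txnrd1 (chr10:82896037-82896039, plus strand, exon 14 of 14) and 526 of 527 in Txnrd2. In 8 of the 10 genes the first such codon stood more than 55 bases before the last junction. The exceptions were Selk, with 5 bases, and Txnrd1, with its codon in the last exon.

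**Figure D1:**
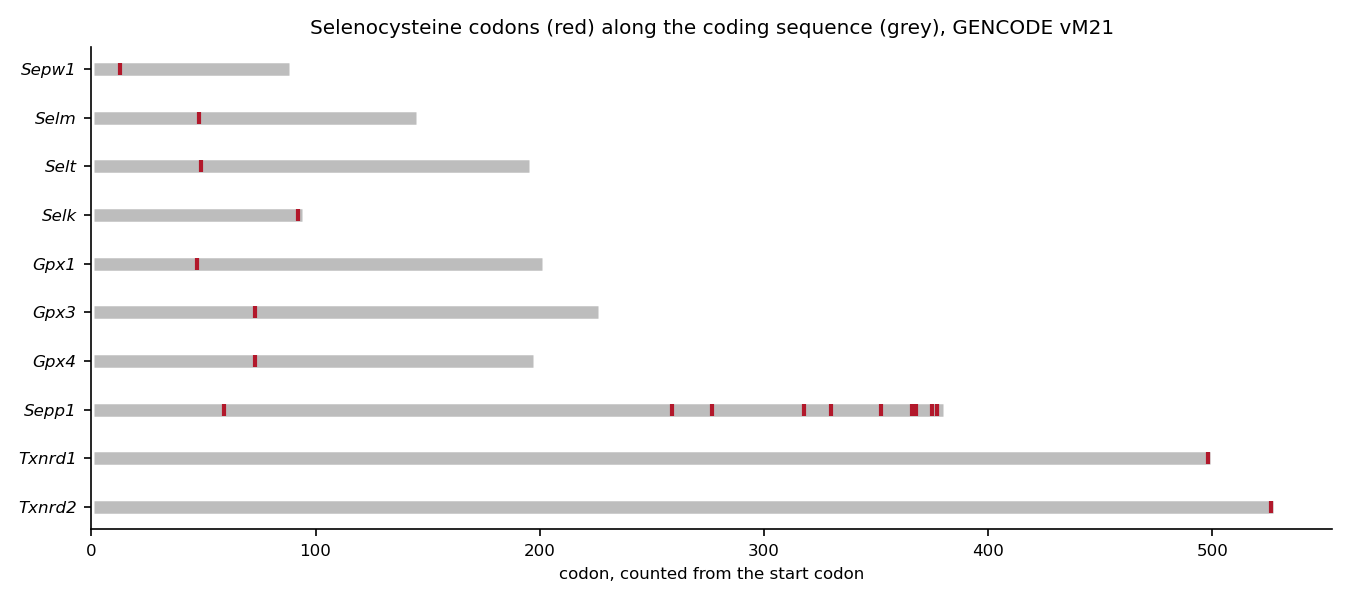
Each grey bar is the coding sequence of a gene in codons, counted from the start codon, and each red mark a selenocysteine codon. Sepp1 has 10 marks, and the marks of Selk, Txnrd1 and Txnrd2 stand at codons 92, 498 and 526, beside the end of the bar.

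Levels were compared first as the deposited RPKM values, which are per length and so can be set beside each other between genes. Sepw1, a small thioredoxin-like protein known from muscle and brain, was the most abundant member in 6 of the 7 groups. Its mean was 1221 RPKM ± 69.1 (SD, n = 3) in the brain translatome, the rank of 8 among all mRNA rows, and its lowest mean was 205 ± 4.79 in the kidney transcriptome. The exception was the brain EC translatome, where Sepp1 led with 730.4 ± 68.7 RPKM and rank 21, and Sepw1 had 255 ± 23.2. Sepw1 levels in the brain and kidney EC translatomes overlapped between libraries, and all other neighbours in its order did not.

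Sepp1 had the widest range of the 10, 78.1-fold between the highest and the lowest group mean. Its levels in the 3 libraries of each group were 792, 656 and 744 RPKM in the brain EC translatome, 145.4, 131 and 128 in the kidney translatome, 82.3, 98.6 and 82.3 in the brain translatome, and 89.0, 83.8 and 78.7 in the kidney EC translatome. The brain and kidney EC libraries were thus far apart, while the brain translatome and the kidney EC translatome overlapped. Below these came the kidney transcriptome at 64.0, 63.9 and 59.1, the brain transcriptome at 34.2, 41.2 and 33.2, and the Emx1-lineage at 8.23, 9.73 and 10.1 RPKM, without overlap.

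The glutathione peroxidases reduce peroxides with glutathione, Gpx1 in the cytosol, Gpx3 as a secreted enzyme and Gpx4 on lipid peroxides in membranes. Gpx1 was the most abundant of them in each group. Its means ran from 67.4 ± 6.50 RPKM in the brain transcriptome to 217 ± 10.9 in the brain EC translatome, and only its kidney translatome (188 ± 8.76) and kidney EC translatome (185 ± 21.2) overlapped as neighbours. Gpx3 spanned 11.8-fold, from 4.75 ± 0.305 in the brain transcriptome to 55.8 ± 1.13 in the kidney translatome. Gpx4 kept within 2.60-fold, between 11.5 ± 1.02 in the brain transcriptome and 29.8 ± 3.74 in the brain translatome, where the first library had 34.1 and the others 27.2 and 28.2.

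Selm and Selk are proteins of the endoplasmic reticulum, and Selt is a thioredoxin-like protein of the same compartment. Selm was highest in the brain EC translatome (97.9 ± 6.95 RPKM) and lowest in the brain transcriptome (10.2 ± 1.32), a 9.62-fold span. Selt ran from 27.8 ± 0.838 in the brain transcriptome to 67.3 ± 3.43 in the kidney translatome. Selk was highest in the Emx1-lineage (86.2 ± 1.93) and lowest in the kidney EC translatome (28.8 ± 2.82), and its brain transcriptome and brain EC translatome overlapped.

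The thioredoxin reductases varied least. Txnrd1, the cytosolic enzyme that keeps thioredoxin reduced, spanned 1.68-fold, from 76.7 ± 5.14 RPKM in the kidney transcriptome to 129 ± 3.11 in the Emx1-lineage. Txnrd2, its mitochondrial relative, spanned 1.69-fold, from 6.36 ± 0.789 in the brain EC translatome to 10.7 ± 0.684 in the kidney EC translatome. For Txnrd1 the kidney transcriptome, brain EC translatome, kidney translatome and brain transcriptome each overlapped with the next in order.

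**Figure D2:**
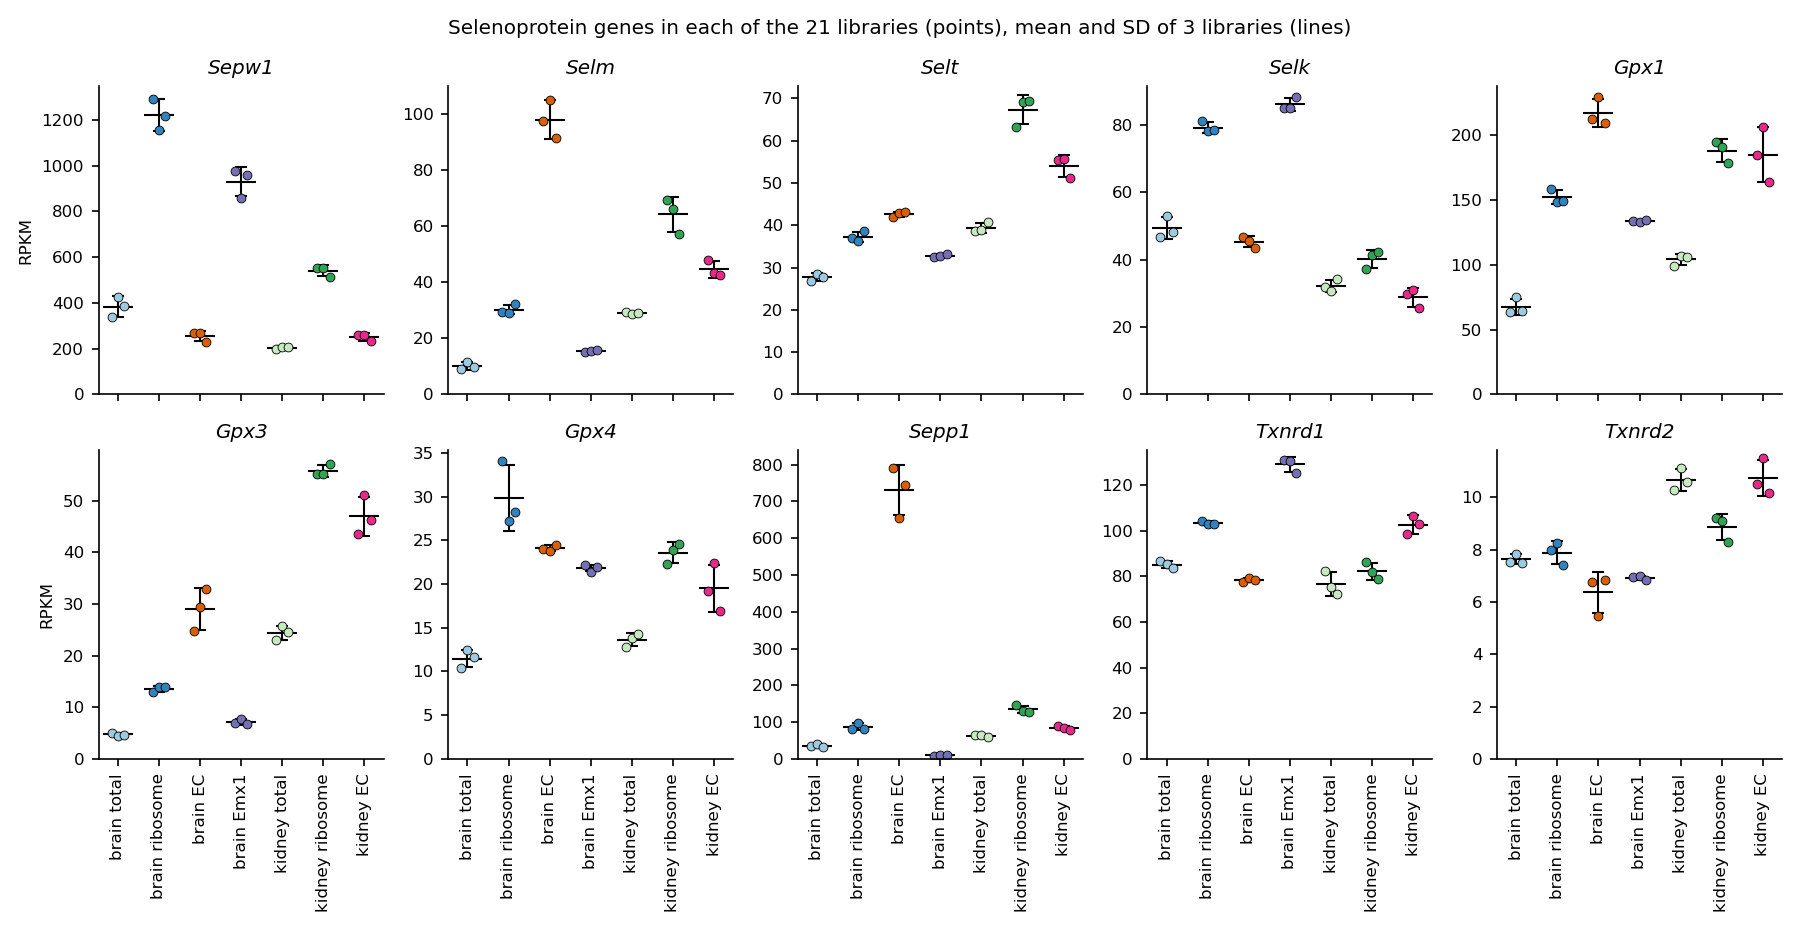
Points are the RPKM of single libraries in the 7 groups, and lines the mean and SD of 3 libraries, on a linear axis that starts at 0 and differs between genes. The 3 brain EC libraries stand apart for Sepp1 (656 to 792 RPKM) and Selm (91.2 to 105), and the brain translatome for Sepw1 (1155 to 1293).

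Some values carry known uncertainty. Gpx4 has 2 near copies and Selk 5 in the annotation, at 95% identity or more over at least 100 bases, and reads could be split with them. Exons of Sepp1 share 439 bases with Ccdc152 on the opposite strand. The kit named by the study does not mark strand, so such reads cannot be assigned. Ccdc152 had at most 50 reads in any library, against 69639 to 98017 for Sepp1 in the brain EC translatome.

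Ribosome-bound RNA was compared with total RNA to see which mRNAs were enriched or depleted on ribosomes. Nearly the whole gene set was enriched in brain: 9 of 10 genes were higher in the translatome, 0 lower, and only Txnrd2 was not called (edgeR quasi-likelihood test, Benjamini-Hochberg adjusted p under 0.001 over all rows tested). Of all 19446 rows, 18.6% were called higher and 18.5% lower. Among rows with a mean of at least 1 RPKM in either group the shares were 27.3% and 25.2%. The median log2 fold change of the 10 genes was 1.25. The fold changes rest on read counts scaled for library composition, and so need not equal the ratio of mean RPKM.

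Sepw1 had 336, 427 and 387 RPKM in the brain transcriptome and 1293, 1155 and 1216 in the brain translatome, with a log2 fold change of 1.70 ± 0.08 (SE, n = 3 per group, edgeR adjusted p = 7.4e-10). Every translatome library was above every transcriptome library. Selm had 9.03, 11.6 and 9.90 RPKM against 29.5, 28.9 and 32.1, a log2 fold change of 1.59 ± 0.10. Gpx3 had 5.07, 4.46 and 4.70 RPKM against 12.9, 14.0 and 13.8, a log2 fold change of 1.55 ± 0.09. These were the top 3 of the 10 genes, and none of them overlapped between the groups.

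Gpx4 (1.31 ± 0.10), Sepp1 (1.30 ± 0.08) and Gpx1 (1.20 ± 0.06) followed on the log2 scale, and their libraries did not overlap either. Selk rose by 0.71 ± 0.06 and Selt by 0.45 ± 0.05. Txnrd1 rose least, with 86.8, 85.3 and 83.5 RPKM in total RNA and 104, 103 and 103 on ribosomes, a log2 fold change of 0.32 ± 0.05 (edgeR adjusted p = 8.7e-05). Txnrd2 had 7.54, 7.85 and 7.51 RPKM against 7.98, 8.27 and 7.40, overlapping, with a log2 difference of 0.08 ± 0.08 (edgeR adjusted p = 0.46). Within the sequencing run that holds all 3 brain translatome libraries and a single transcriptome library, 8 genes were called higher, and Txnrd1 was not (0.27, edgeR adjusted p = 0.0096). In that fit the spread comes from the translatome libraries alone, and the lone transcriptome library is assumed to vary like them. Its call was also lost without the first brain translatome library (0.28, edgeR adjusted p = 0.0010).

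In kidney, 7 of the 10 genes were enriched in the translatome, 0 were lower and 3 were not called, where 14.9% of all rows were called higher and 15.8% lower. Among rows with a mean of at least 1 RPKM in either group the shares were 21.9% and 22.6%. The median log2 fold change of the 10 was 0.81. Sepw1 again led, with 199, 206 and 209 RPKM in total RNA and 554, 554 and 512 on ribosomes, a log2 fold change of 1.40 ± 0.04 (edgeR adjusted p = 1.9e-08). Gpx3 (1.19 ± 0.05), Selm (1.15 ± 0.07), Sepp1 (1.11 ± 0.06), Gpx1 (0.85 ± 0.05), Selt (0.77 ± 0.05) and Gpx4 (0.71 ± 0.08) were the others, each without overlap between groups. Selk had a log2 difference of 0.32 ± 0.07 (edgeR adjusted p = 0.0028), Txnrd1 0.10 ± 0.06 (edgeR adjusted p = 0.19) and Txnrd2 -0.26 ± 0.08 (edgeR adjusted p = 0.019). With the shared tissue as a replicate block, Selk was called higher (0.32, edgeR adjusted p = 1.7e-09) and Txnrd2 lower (-0.26, edgeR adjusted p = 0.00024), so that 8 genes were higher and 1 lower.

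Transcript length went with this comparison across all mRNAs. With mRNA rows split into 10 groups by transcript length, the shortest group had a median log2 fold change of 0.90 (brain) and 0.62 (kidney), and the longest one of -0.41 and -0.21. In the shortest group 74.1% of mRNA rows were called higher in brain and 53.1% in kidney. Sepw1, Selm, Gpx4, Selk and Gpx1 have transcripts of 711 to 1055 bases and fall in the shortest group, and Gpx3 (1529), Txnrd2 (1776), Sepp1 (2013), Txnrd1 (3371) and Selt (3577) in longer ones. In each organ 8 of the 10 genes lay above the median of mRNAs of their own length, and the same pair, Selk and Txnrd2, lay below it. Sepp1 stood 1.30 against a length-group median of 0.25 in brain and 1.11 against 0.02 in kidney, and Selt 0.45 against -0.12 and 0.77 against -0.10.

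With an offset for these length groups, 8 genes stayed called higher in brain and 5 in kidney. Gpx1 (0.25, edgeR adjusted p = 0.0015) and Gpx4 (0.10, edgeR adjusted p = 0.30) were then no longer called in kidney, and Selk turned to -0.18 in brain and -0.29 in kidney, neither called. Blood markers moved in the same comparison: the 11 erythroid markers summed to 485 to 923 RPKM in the brain transcriptome and 155 to 246 in the translatome, and to 838 to 1108 and 104 to 195 in kidney, with Hba-a1 and Hba-a2 at 0 in all of them. The largest of these in the brain transcriptome was Hbb-b2 (a mean of 392 RPKM), whose counts and RPKM give its row a length of 4 bases. Without it, a choice made after the values were seen, the sums were 187 to 429.9 and 98.7 to 192 RPKM in brain, which overlap, and 356 to 669 and 92.8 to 174 in kidney. The sum of the macrophage markers was higher on ribosomes, with 34.1 to 44.1 RPKM in total RNA and 58.0 to 65.5 in the brain translatome. In kidney it was 34.2 to 40.2 and 42.2 to 54.8. Of those over 1 RPKM, 5 of 8 were called higher in brain and 1 of 9 in kidney, with 0 lower. Csf1r went the other way, with means of 5.34 and 5.03 RPKM in brain and 4.68 and 4.00 in kidney. The endothelial sum was higher too, with 63.5 to 75.7 and 83.0 to 94.6 RPKM in brain and 195 to 215 and 259.7 to 277.0 in kidney. Of these 9 markers 2 were called higher in brain and 3 in kidney, with 0 lower. Kdr had lower means on ribosomes, 13.4 and 10.6 RPKM in brain and 24.1 and 21.8 in kidney. The part of these cell types in the values of the 10 genes was not tested. In whole organs, fewer cells of a type and less RNA per cell cannot be told apart.

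**Figure D3:**
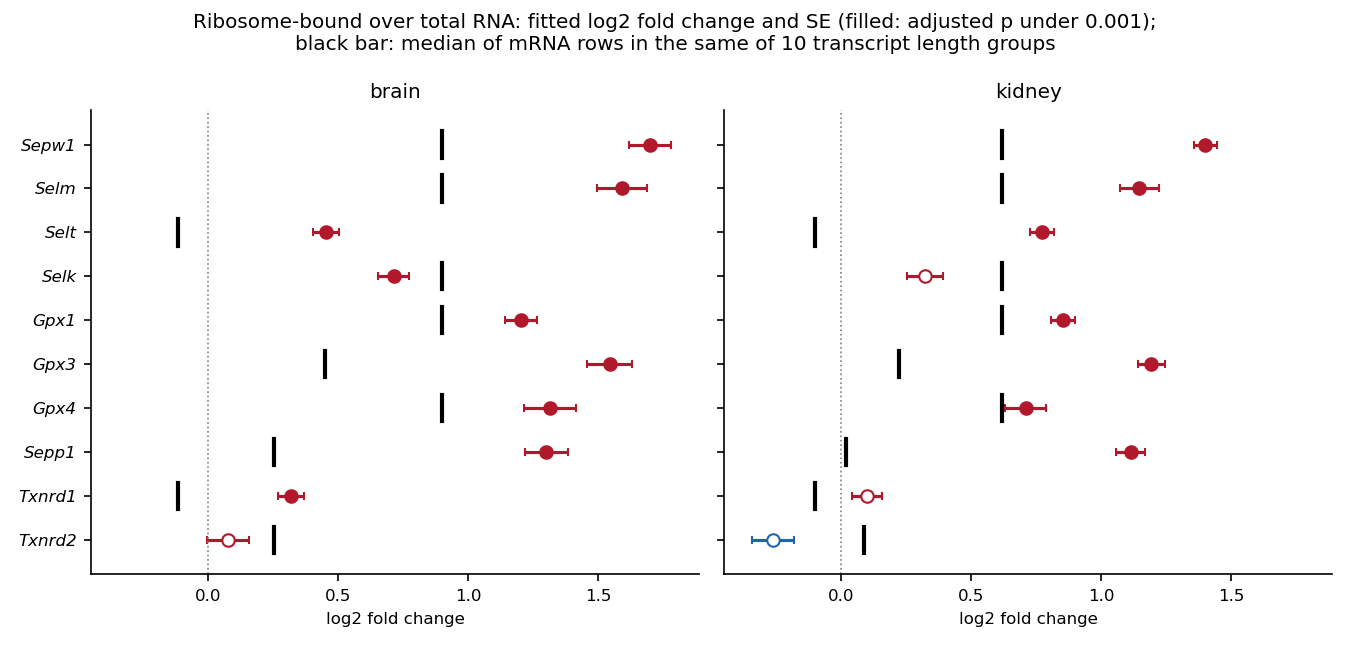
Points are the fitted log2 fold change of the translatome over the transcriptome with its SE, filled where the adjusted p was under 0.001, and black bars the median of mRNA rows in the same of 10 groups by transcript length. In both organs Sepw1 is farthest right (1.70 and 1.40), and only Selk and Txnrd2 lie left of their bar.

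Whether the enrichment differed between the organs was tested as an interaction, the kidney log2 fold change minus that of brain. At the adjusted threshold 0 of the 10 genes were called by edgeR, where 4.12% of all rows were called higher and 2.35% lower. At an unadjusted p under 0.05 there were 9 of 10, with 1 higher in kidney and 8 lower, against 17.4% and 15.7% of all rows at that threshold, and DESeq2 called 1 higher and 2 lower. With the shared tissue as a replicate block, Selt was called higher in kidney (0.34 ± 0.06, edgeR adjusted p = 8.4e-05), and Gpx4 (-0.58 ± 0.11), Selm (-0.43 ± 0.10), Selk (-0.38 ± 0.08) and Gpx1 (-0.33 ± 0.07) lower. Without the block, Gpx1 was called when the second brain transcriptome library was left out (-0.40) and Selt when the first kidney translatome library was (0.37). Over mRNAs of the shortest length group, to which the last 4 belong, the median of this difference was -0.29 without the block. Sepp1 had the smallest difference, -0.17 ± 0.12 (edgeR adjusted p = 0.36).

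Kidney was then set against brain within each kind of RNA. These fits had no term for the sequencing run, so organ and run were not separated. In total RNA, 5 of the 10 genes were higher in kidney and 3 lower, against 26.3% and 27.2% of all rows. The extracellular peroxidase Gpx3 led, with 4.46 to 5.07 RPKM in brain and 23.0 to 25.7 in kidney, a log2 fold change of 2.18 ± 0.08 (edgeR adjusted p = 9.2e-10). Selm (1.32 ± 0.09), Sepp1 (0.59 ± 0.07), Gpx1 (0.44 ± 0.06) and Selt (0.32 ± 0.04) were also higher in kidney. Sepw1 (-1.09 ± 0.07), Selk (-0.80 ± 0.07) and Txnrd1 (-0.33 ± 0.06) were lower in kidney, none with overlapping libraries. The call of Txnrd1 was lost without the third brain or the second kidney transcriptome library (-0.33 and -0.32, edgeR adjusted p = 0.0011 and 0.0012).

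On ribosomes 4 genes were higher in kidney and 4 lower, against 26.2% and 27.2% of all rows. Gpx3 again led, with 12.9, 14.0 and 13.8 RPKM in brain and 55.1, 55.1 and 57.1 in kidney (log2 fold change 1.84 ± 0.06, edgeR adjusted p = 8.9e-12). Selm (0.89 ± 0.08), Selt (0.65 ± 0.06) and Sepp1 (0.42 ± 0.08) were higher too. Sepw1 was lower in kidney by a log2 fold change of -1.38 ± 0.07, Selk of -1.18 ± 0.06, Gpx4 of -0.60 ± 0.10 and Txnrd1 of -0.54 ± 0.06. Gpx1, called in total RNA, had a log2 difference of 0.10 ± 0.06 here (edgeR adjusted p = 0.11). Scaling by total counts moved the median of all mRNA rows by 0.18 in total and 0.19 in ribosome-bound RNA, and it changed 4 calls. In total RNA Txnrd2 was then called higher in kidney (0.47) and Txnrd1 was no longer called (-0.15, edgeR adjusted p = 0.021). On ribosomes Gpx1 was then called higher in kidney (0.30, edgeR adjusted p = 0.00024) and Gpx4 was no longer called (-0.41). Gpx4 also lost its call without the first brain translatome library (-0.49, edgeR adjusted p = 0.0012), and so did Sepp1 without the first (0.38, edgeR adjusted p = 0.0071) or the third (0.38, edgeR adjusted p = 0.0015).

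**Figure D4:**
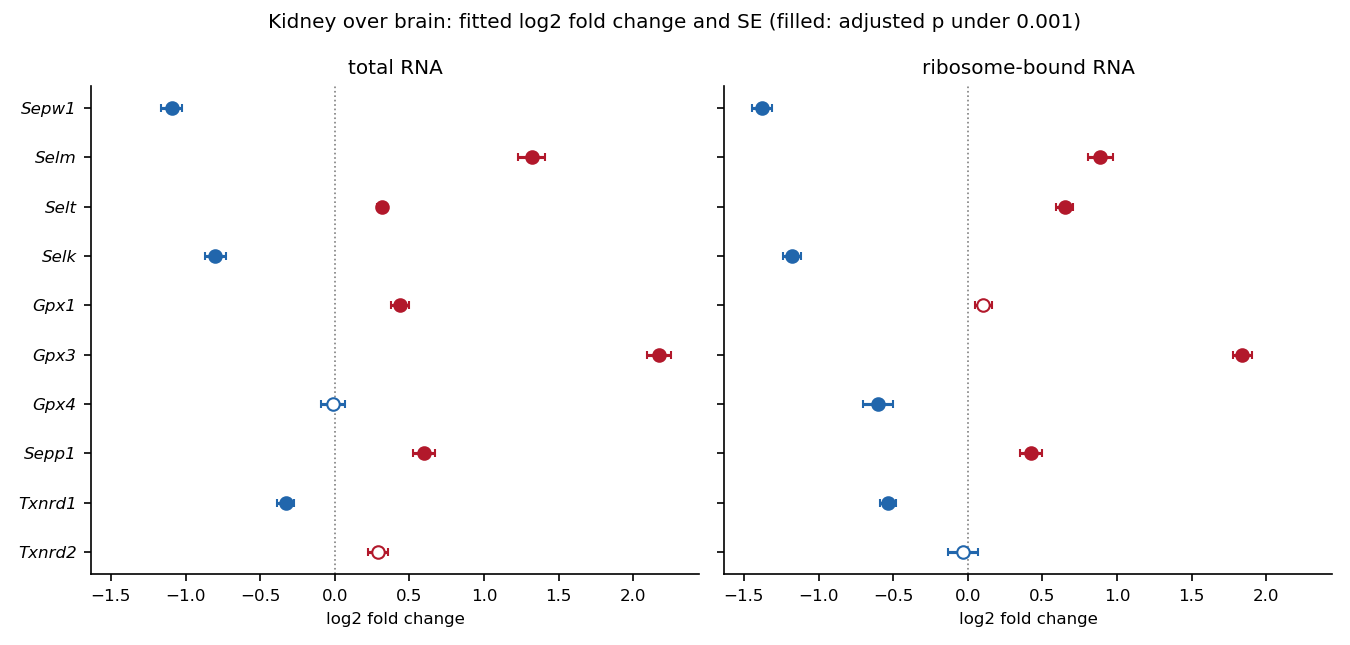
Points are the fitted log2 fold change of kidney over brain with its SE, filled where the adjusted p was under 0.001, for total RNA on the left and ribosome-bound RNA on the right. Gpx3 is highest (2.18 and 1.84) and Sepw1 lowest (-1.09 and -1.38) in both.

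The EC translatomes were compared with the translatome of the whole organ. In brain, 5 of the 10 genes were enriched in endothelial cells and 2 depleted, against 24.8% and 21.4% of all rows. Selenoprotein P stood out: Sepp1 had 82.3, 98.6 and 82.3 RPKM in the brain translatome and 792, 656 and 744 in the brain EC translatome, a log2 fold change of 3.35 ± 0.11 or 10.2-fold (edgeR adjusted p = 1.4e-11). Selm rose from 28.9 to 32.1 RPKM to 91.2 to 105 (1.99 ± 0.08), and Gpx3 from 12.9 to 14.0 RPKM to 24.7 to 32.9 (1.39 ± 0.10). Gpx1 (0.80 ± 0.07) and Selt (0.48 ± 0.06) were enriched as well.

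Sepw1 went the other way in brain endothelial cells. It had 1293, 1155 and 1216 RPKM in the whole brain translatome and 270, 268 and 228 in the EC translatome, a log2 fold change of -1.97 ± 0.09 (edgeR adjusted p = 2.7e-10). Selk was depleted by -0.52 ± 0.06 on the log2 scale. Gpx4 (-0.14 ± 0.09), Txnrd1 (-0.12 ± 0.06) and Txnrd2 (-0.02 ± 0.11) were not called. The macrophage markers, a cell type known to express Sepp1, summed to 34.5 to 37.1 RPKM in the brain EC translatome and 58.0 to 65.5 in the whole, and the 6 mural markers to 23.4 to 28.8 and 40.8 to 55.8. Of the mural markers 2 were called higher in brain EC and 4 lower, with Cspg4 at means of 10.2 RPKM in EC and 2.10 in the whole and Anpep at 2.48 and 1.76, and of 8 macrophage markers over 1 RPKM 0 were higher and 2 lower. Their part in the level of Sepp1 was not tested. With the offset for transcript length Selk was no longer called (-0.25, edgeR adjusted p = 0.0023).

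In kidney endothelial cells 2 of the 10 genes were enriched and 1 depleted, against 16.7% and 15.0% of all rows. The enriched genes were the thioredoxin reductases. Txnrd1 had 86.2, 81.9 and 78.7 RPKM in the kidney translatome and 98.4, 107 and 103 in the kidney EC translatome (log2 fold change 0.67 ± 0.06, edgeR adjusted p = 4.9e-06), and Txnrd2 had 9.22, 9.09 and 8.30 against 10.5, 11.5 and 10.2 (0.63 ± 0.09, edgeR adjusted p = 0.00011). Both were higher in all 3 EC libraries. Sepw1 was depleted, from 554, 554 and 512 RPKM to 259, 261 and 232 (-0.75 ± 0.07). Sepp1 had a log2 difference of -0.33 ± 0.07 (edgeR adjusted p = 0.0019), and DESeq2 called it lower.

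These kidney calls depended on the scaling. Scaling by total counts alone moves the median of all mRNA rows by -0.37 in kidney EC and -0.30 in brain EC, and with it 0 of the 10 genes were higher and 5 lower in kidney EC. Txnrd1 was then at 0.30 (edgeR adjusted p = 0.0015) and Txnrd2 at 0.26 (edgeR adjusted p = 0.030). In brain EC the same scaling called Gpx4 and Txnrd1 lower as well (-0.44 and -0.41) and no longer called Selt (0.18). Without the third kidney translatome library Txnrd2 was no longer called (0.59, edgeR adjusted p = 0.0011), and without the third kidney EC library Gpx1 was called higher (0.41, edgeR adjusted p = 0.00030).

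The difference between the organs in endothelial enrichment was tested itself, as the brain log2 fold change minus that of kidney. It was called for 7 of the 10 genes, 5 higher in brain and 2 lower, against 16.5% and 8.60% of all rows, over a median of 0.16 for all rows. Sepp1 had the largest difference of the 10 genes, 3.71 ± 0.13 (edgeR adjusted p = 2.8e-12), followed by Selm with 2.19 ± 0.12 and Gpx3 with 1.31 ± 0.13. Gpx1 (0.50 ± 0.10) and Selt (0.47 ± 0.08) were closer to the threshold, with an edgeR adjusted p of 0.00081 and 0.00021, and both lost the call with DESeq2-type size factors. Gpx1 also lost it when any of 11 of the 12 libraries was left out (0.42 to 0.53), and Selt without the second brain translatome library (0.45). Sepw1 (-1.19 ± 0.11) and Txnrd1 (-0.76 ± 0.08) were lower in brain.

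Set directly beside each other, the brain and kidney EC translatomes differed most in Sepp1, with 656 to 792 RPKM in brain and 78.7 to 89.0 in kidney, a log2 fold change of 3.17 ± 0.10 or 8.97-fold (edgeR adjusted p = 6.9e-10). Macrophage markers differed in the same direction, with sums of 34.5 to 37.1 RPKM in brain EC and 9.74 to 11.1 in kidney EC, and 7 of 8 were called higher in brain EC. Their part in the difference of Sepp1 was not tested. In all, 3 genes were higher in brain EC and 3 lower, against 20.1% and 16.9% of all rows. Selm (1.18 ± 0.08) and Selk (0.70 ± 0.08) were the other higher genes, and Txnrd2 (-0.71 ± 0.11), Gpx3 (-0.65 ± 0.10) and Txnrd1 (-0.34 ± 0.06) were lower. Txnrd1 was not called with a replicate block (-0.34, edgeR adjusted p = 0.0014) or when any of the 6 libraries was left out (-0.32 to -0.37). Sepw1, which separated the whole organs, had 228 to 270 RPKM in brain EC and 232 to 261 in kidney EC, with a log2 difference of 0.07 ± 0.08 (edgeR adjusted p = 0.47).

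The translatome of the Emx1-lineage, the neural cells of the dorsal telencephalon, was compared with that of the whole brain. Here 5 of the 10 genes were depleted and 1 enriched, against 12.8% and 9.20% of all rows. Sepp1 had 82.3, 98.6 and 82.3 RPKM in the whole brain and 8.23, 9.73 and 10.1 in the Emx1-lineage, a log2 fold change of -3.16 ± 0.09 or 8.96-fold lower (edgeR adjusted p = 1.2e-12). Selm (-0.91 ± 0.07), Gpx3 (-0.88 ± 0.08), Gpx4 (-0.42 ± 0.08) and Sepw1 (-0.34 ± 0.06) were depleted too. Txnrd1 was enriched, with 104, 103 and 103 RPKM against 131, 131 and 126 (0.37 ± 0.04, edgeR adjusted p = 4.4e-06).

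The brain EC and Emx1 comparisons share the brain translatome libraries, and side by side their log2 fold changes were 3.35 and -3.16 for Sepp1, 1.99 and -0.91 for Selm, and 1.39 and -0.88 for Gpx3. Endothelial markers fell with them in the Emx1-lineage, from 83.0 to 94.6 RPKM to 6.27 to 6.73 in sum, with 3 of 9 over 1 RPKM and 0 at 0. Macrophage markers fell from 58.0 to 65.5 to 3.12 to 3.57, with 0 of 9 over 1 RPKM, and mural markers from 40.8 to 55.8 to 6.08 to 6.73. The part of each cell type in the depletion was not tested. Gpx4 lost its call when any single Emx1 library was left out (edgeR adjusted p between 0.0012 and 0.0041) or the first brain translatome library (-0.31). Sepw1 lost its call without the first brain translatome library (-0.30) or the second Emx1 library (-0.28).

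**Figure D5:**
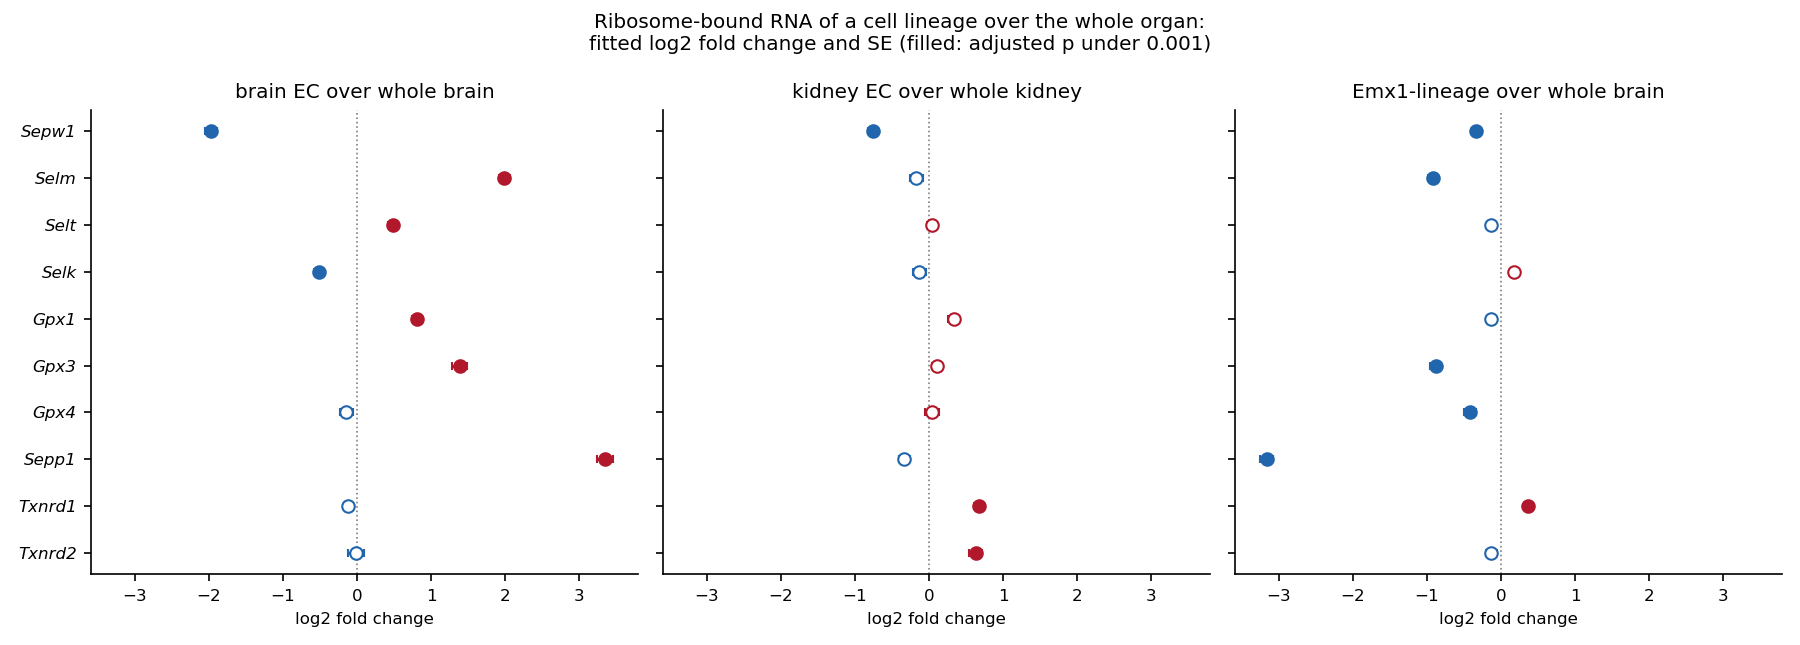
Points are the fitted log2 fold change of each lineage's translatome over that of the whole organ with its SE, filled where the adjusted p was under 0.001, on a shared axis. Sepp1 lies at 3.35 in brain EC, -0.33 in kidney EC and -3.16 in the Emx1-lineage.

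The other selenoprotein genes formed a list of 14, of which 9 or 10 reached a mean of 1 RPKM in a group of a given comparison. Of all rows over that minimum, 27.3% were called higher and 25.2% lower on ribosomes in brain (median log2 fold change 0.03), and 21.9% and 22.6% in kidney. In brain 5 of 10 were higher on ribosomes and 1 lower, and in kidney 5 of 9 were higher and 2 lower, with medians of 0.58 and 0.43. Sep15, a folding factor of the endoplasmic reticulum, had log2 fold changes of 1.20 ± 0.06 and 1.27 ± 0.04 in brain and kidney. Selh, a nuclear selenoprotein, had 1.22 ± 0.07 and 0.97 ± 0.04, and Msrb1, a methionine sulphoxide reductase, 1.27 ± 0.08 and 0.92 ± 0.08. With the offset for transcript length Msrb1 was not called in kidney (0.31, edgeR adjusted p = 0.0048). Seli, an enzyme of phospholipid synthesis, was depleted in both, by -0.68 ± 0.06 and -0.55 ± 0.04. Sepn1, a protein of the endoplasmic reticulum, was enriched in the brain EC translatome (1.40 ± 0.07) and in that of kidney (0.51 ± 0.06), where scaling by total counts ended the call (0.14), and depleted in the Emx1-lineage (-0.49 ± 0.05).

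Of 14 genes for the synthesis and insertion of selenocysteine, 4 were higher and 2 lower on ribosomes in brain, and 3 higher and 6 lower in kidney. Of all rows over 1 RPKM, 27.3% were higher and 25.2% lower in brain, and 21.9% and 22.6% in kidney. The counts of higher genes were thus close to the share of all rows in both organs. Trnau1ap, a protein that associates with the selenocysteine tRNA, had log2 fold changes of 0.95 ± 0.07 and 0.68 ± 0.05, but was called in neither organ with the offset for transcript length (0.055 and 0.075). Secisbp2, which binds the stem-loop, was depleted in kidney (-0.86 ± 0.06). In brain EC 3 of the 14 were enriched and 2 depleted, against 32.9% and 29.4% of all rows over 1 RPKM. The depleted genes were Trit1 (-0.79 ± 0.10) and Trnau1ap (-0.54 ± 0.08). Among the enriched were Sephs2, which makes selenophosphate and is a selenoprotein itself, at 0.51 ± 0.07, and Pstk, which phosphorylates the seryl-tRNA, at 0.61 ± 0.09. With scaling by total counts neither Sephs2 nor Pstk was called (0.21 and 0.31).

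Of the 3 genes for uptake and recycling, all 3 were called higher in brain EC, against 32.9% of all rows over 1 RPKM. Lrp2 passed that minimum only through brain EC, with means of 4.35 RPKM there and 0.69 in the brain translatome. Its call therefore adds nothing to the count. Lrp8, the receptor that takes up selenoprotein P in brain, had a mean of 105 RPKM in brain EC. Its log2 fold change over the whole brain was 1.67 ± 0.10 (edgeR adjusted p = 4.9e-09). Lrp8 was 21.4-fold higher in brain EC than in kidney EC (4.42 ± 0.11). Lrp2, the receptor known for this in kidney tubules, was higher in kidney EC than in brain EC by 6.13-fold. Kidney EC also had 2 of the 3 genes enriched over the whole kidney, against 16.7% of all rows. These were Lrp2 (2.52 ± 0.16) and Lrp8 (0.66 ± 0.08), and scaling by total counts moves the median of all mRNA rows there by -0.37. Scly, the lyase that frees selenium from selenocysteine, was at 0.67 ± 0.09 on the log2 scale in brain EC, and was not called with scaling by total counts (0.37, edgeR adjusted p = 0.0023).

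Redox partners without selenocysteine gave 22 genes, of which 16 were higher and 1 lower on ribosomes in brain, and 11 higher and 1 lower in kidney. Their medians were 0.55 and 0.26. Of all rows over 1 RPKM, 27.3% were higher and 25.2% lower in brain, and 21.9% and 22.6% in kidney. Transcripts of the list ran from 653 bases (Sod1) to 3855 (Sod2), and these counts take no account of length. Txn1, the thioredoxin that Txnrd1 reduces, had 1.09 ± 0.05 and 0.75 ± 0.04, and with the offset for transcript length was not called in kidney (0.14, edgeR adjusted p = 0.0077). In brain EC 15 of the 22 were enriched and 6 depleted, against 32.9% and 29.4% of all rows over 1 RPKM. The methionine sulphoxide reductase Msrb3 led (3.59 ± 0.09).

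For each member, the rows with the most similar pattern were sought among 11521 expressed mRNA rows, by Pearson's r of log2(RPKM + 1) over the 21 libraries, as a description. The pattern of Sepp1 was most like that of Hexa (r = 0.98) and Igfbp7 (r = 0.97), that of Sepw1 like Fam32a and St3gal3 (both r = 0.99), and that of Selm like Gpx7, a glutathione peroxidase relative without selenocysteine (r = 0.97). Gpx3 went with Gpr180 and Srd5a3 (both r = 0.99) and Txnrd1 with Rnf122 (r = 0.95). The libraries of a group share tissue, depth and run, so these are not independent points.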

How the data were processed

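Reads of the 21 libraries were, per the study's methods, mapped by the authors with RUM to GRCm38 (mm10) and assigned to UCSC refGene rows with rpkmforgenes, which gave the deposited read counts (raw, per row) and the deposited RPKM. Files were used as deposited, and no row or sample was left out. The quasi-likelihood test of edgeR 4.0.16 (R 4.3.3) with TMM factors was run on the counts of the 6 samples of each comparison, or 12 for an interaction, over all rows with at least 1 count, with Benjamini-Hochberg adjustment and a threshold of 0.001. The SE is the log2 fold change over the square root of F. DESeq2 1.42.0 was an alternative, and the fits were tested on simulated data, where a first run of the interaction missed its set bar, recovering few small changes, and the simulation and bar were then revised. Same-numbered translatome and transcriptome libraries shared tissue (correlation of their deviations 0.55 to 0.70 in brain and 0.63 to 0.74 in kidney), and those of brain and kidney EC correlated at 0.18 to 0.37. The study calls the replicates biological, and tissue of more than 1 embryo could enter a sample. Near copies were found with blastn 2.17.0. A withheld item is not reported here. The 10 genes were all named, and of other lists at most 3 called genes per comparison with a mean RPKM of at least 5. Seli on ribosomes over total RNA and Lrp2 in brain EC were named outside that limit. The members and lists were chosen with earlier results of these data known. Precision is given as the SD of the libraries of a group or the SE of the fit.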

Additional observations from a re-analysis of the deposited data

Results flagged for a closer look

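For 7 of the 10 genes the endothelial log2 fold change (EC over whole-organ translatome) differed between brain and kidney by edgeR's interaction test, given as brain minus kidney, against 16.5% of all rows higher and 8.60% lower. The difference was 3.71 for Sepp1 (adjusted p = 2.8e-12), 2.19 for Selm (adjusted p = 2.8e-10), 1.31 for Gpx3 (adjusted p = 2.8e-07), 0.50 for Gpx1 (adjusted p = 0.00081) and 0.47 for Selt (adjusted p = 0.00021), all with the greater enrichment in brain. Gpx1 lost the call when any of 11 of the 12 libraries was left out, and Selt with the replicate block. Here that block pairs EC and whole-organ libraries by number only, as they come from different Cre crosses. Deviations of same-numbered libraries correlated at a mean of 0.027 in brain and -0.002 in kidney. The difference was -1.19 for Sepw1 (adjusted p = 1.3e-07) and -0.76 for Txnrd1 (adjusted p = 8.3e-07). For Sepw1 both endothelial groups were below their organ, and for Txnrd1 the brain value was near 0 (-0.12) and the kidney value 0.67. The 2 EC groups were each sequenced in a run of their own, so organ and run cannot be told apart.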

How the results depend on the processing

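Of 1640 values of the 10 genes under all alternatives, 1512 kept their direction and side of the threshold, 57 gained a call, 51 lost one and 20 changed sign, none of them called before and after. Counts of genes called moved by over 1.5 times as follows. With DESeq2, 2 were lower in kidney EC against kidney, 1 was higher and 2 lower in the organ interaction, and 4 lower in the endothelial interaction. With its size factors in edgeR, 3 were higher in the endothelial interaction. With total counts, 4 were lower in brain EC, and 0 higher and 5 lower in kidney EC. With the length offset, 1 was lower in brain EC, 2 were lower in kidney EC and 2 higher in the Emx1-lineage. In a single fit of 21 samples, 5 were higher in brain EC than kidney EC and 1 was higher in the organ interaction. At a threshold of 0.05, 1 was lower in the kidney translatome, 2 lower in kidney EC, 2 higher in the Emx1-lineage, 5 higher in brain EC than kidney EC, 1 higher and 6 lower in the organ interaction, and 4 lower in the endothelial interaction. With the replicate block, 1 was lower in the kidney translatome, and 1 was higher and 4 lower in the organ interaction. It also ended the calls of Txnrd1 between the EC groups and of Selt in the endothelial interaction (0.47, edgeR adjusted p = 0.0011), and otherwise moved no count by more. In the endothelial interaction it pairs EC and whole-organ libraries by number only, without shared tissue. Leaving out a library at a time gave 0 to 1 higher and 0 to 1 lower in the organ interaction, 3 to 5 higher in the endothelial interaction, 1 to 3 higher in kidney EC and 3 to 5 lower in the Emx1-lineage. Gpx1 lost its call in the endothelial interaction when any of 11 of the 12 libraries was left out (0.42 to 0.53), and Selt without the second brain translatome library (0.45). In the organ interaction Gpx1 gained a call without the second brain transcriptome library (-0.40) and Selt without the first kidney translatome library (0.37). On TMM-scaled counts, the whole order of the 7 groups was the same for 2 genes, the highest group for 8 and the lowest for 7.

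Signs changed with the length offset for Selk (-0.18 in brain, -0.29 in kidney), Txnrd2 (-0.18) and Pstk (-0.17) in the brain translatome, Gpx4 in brain EC (0.13), Selt in kidney EC (-0.041) and Sepw1 in the organ interaction (0.0064). With total counts they changed for Gpx1 (-0.037), Gpx3 (-0.26), Gpx4 (-0.33) and Selt (-0.33) in kidney EC, for Gpx4 in total RNA of kidney over brain (0.17) and for Txnrd2 on ribosomes (0.16). Gpx4 in total RNA also changed with a minimum of 10 counts in 3 samples (0.0017). Leaving out a library at a time gave -0.067 to 0.056 for Gpx4 in total RNA of kidney over brain, -0.071 to 0.013 for Txnrd2 on ribosomes, -0.078 to 0.080 for Txnrd2 in brain EC and -0.036 to 0.11 for Gpx4 in kidney EC. The causes were not tested.

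With 3 libraries a group, small differences such as those between organs in ribosome association lay near the limit of detection in the main fit. That fit has no term for shared tissue, and with the replicate block some of these differences were called.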
